A study of Mus musculus with 10 samples.

Results

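The gene for interferon-γ (IFN-γ), Ifng, and the genes for the ligand-binding and the accessory chain of its receptor, Ifngr1 and Ifngr2, were followed across all groups of a bulk RNA sequencing study of pmel-1 mouse T cells. The 3 genes were taken by symbol from 55359 gene identifiers in the count table, and all 3 passed the filter on low counts that left 15777 genes for testing. Pmel-1 cells are CD8 T cells with a transgenic receptor for the melanoma antigen gp100. Spleen cells of pmel-1 mice were activated for 48 h with human gp100, kept for another 48 h in human IL-2, and collected for RNA 24 h after electroporation. Each of the 5 groups had 2 libraries: wild-type cells that were not electroporated (NoEp), an electroporated control (Mock), and cells electroporated with mRNA for DRIL18, a variant of IL-18 that resists its decoy receptor, with mRNA for single-chain IL-12 (IL12), or with a mixture of both (IL12/DRIL18). All groups share the gp100 activation and the IL-2 culture, and the labels do not name the mRNA, if any, of the Mock cells. The libraries are titled biological replicates, with no animals named, so the p-values reflect the spread among the libraries, which may be technical. Column names of both NoEp, both IL12/DRIL18 and replicate 2 of the DRIL18 and IL12 libraries carry a mark, bis, of unstated meaning. No Mock library carries it, so comparisons with Mock also differ in the mark, fully for NoEp and IL12/DRIL18.

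IFN-γ is a cytokine of activated T cells and natural killer (NK) cells. As a dimer it binds IFNGR1, which carries the kinase JAK1, and draws in IFNGR2, which carries JAK2, and both kinases then pass the signal on to the nucleus. In T cells the IL-12 receptor acts on Ifng mainly through STAT4, the IL-18 receptor through NF-κB and p38, and both inputs together are known to induce IFN-γ far more strongly than either alone. Helper T cells are also known to lower IFNGR2 as they differentiate to IFN-γ producers.

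The 250 bases before each transcription start are shown, from RefSeq on the GRCm38.p6 build. They run 5′ to 3′ on the plus strand, on which all 3 genes lie. The reads were counted on a different build, mm39, so these coordinates serve only to identify the sequences. Windows are chr10:118440796-118441045 for Ifng, chr10:19591699-19591948 for Ifngr1 and chr16:91546809-91547058 for Ifngr2, each ending at the base before the annotated start. Capitals mark matches on either strand to a TATA box (TATAAA), a GC box (GGGCGG), a GAS element, the interferon-γ-activated site (TTCNNNGAA), and the sequence TACGTAA, which lies in the proximal Ifng element where CREB and ATF factors bind.
Ifng: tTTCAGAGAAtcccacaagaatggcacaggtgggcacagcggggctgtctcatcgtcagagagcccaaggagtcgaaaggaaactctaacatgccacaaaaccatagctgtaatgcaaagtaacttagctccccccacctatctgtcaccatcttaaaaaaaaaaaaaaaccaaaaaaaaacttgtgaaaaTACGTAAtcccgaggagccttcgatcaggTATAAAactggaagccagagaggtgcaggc
Ifngr1: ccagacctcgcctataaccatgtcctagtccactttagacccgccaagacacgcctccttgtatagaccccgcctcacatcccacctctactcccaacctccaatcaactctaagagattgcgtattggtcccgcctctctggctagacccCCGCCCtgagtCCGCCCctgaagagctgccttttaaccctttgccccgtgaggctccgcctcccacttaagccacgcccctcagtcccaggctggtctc
Ifngr2: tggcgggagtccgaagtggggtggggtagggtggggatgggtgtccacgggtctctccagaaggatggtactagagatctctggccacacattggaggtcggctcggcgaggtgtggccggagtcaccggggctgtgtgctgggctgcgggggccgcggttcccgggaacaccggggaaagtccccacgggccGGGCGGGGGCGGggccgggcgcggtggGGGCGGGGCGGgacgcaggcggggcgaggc

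The Ifng window held a TATA box starting 30 bases before the start, TACGTAA at 59 bases and a GAS match at 249 bases, and no GC box. Among 32851 RefSeq windows of the same length, 12.4% held a TATA box, 0.432% TACGTAA, 7.02% a GAS match and 32.7% a GC box. Ifngr1 had 2 GC boxes, 99 and 88 bases before the start, both on the minus strand. Ifngr2 had 4 GC boxes, at 57, 51, 30 and 25 bases, of which neighbours touch or overlap by a base. Neither receptor window had a TATA box, TACGTAA or a GAS match. The GC content was 45.2% for Ifng, 59.2% for Ifngr1 and 74% for Ifngr2, with 6, 11 and 25 CpG dinucleotides against a median of 6 over all windows. The core of the interferon-stimulated response element (both strands), held by 2.98% of all windows, and an AP-1 site (TGANTCA), held by 6.75%, were in none of the 3. The NFAT core GGAAA, present in 55.6% of all windows, occurred once in Ifng (172 bases before the start) and once in Ifngr2 (75 bases). A T-box core (GGTGTG), present in 16.3%, occurred in Ifngr2 alone of the 3, at 140 bases. These are letter matches in a short window. They were not tested as binding sites or for a link to the changes in expression.

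The libraries held 31281944 to 35062545 counts. Levels are in CPM, the count divided by the TMM-scaled library size and multiplied to a common total, and a gene counts as called at an adjusted p under 0.05 (edgeR quasi-likelihood test, Benjamini-Hochberg over all 15777 genes). Summed levels of cell type markers alone use the library total without TMM scaling. All 8 CD8 T cell markers (Cd8a, Cd8b1, Cd3e and others) were detected, with summed levels of 4980 to 5060 CPM in Mock and 3350 to 3360 CPM in IL12/DRIL18. The 10 NK cell markers summed to 9.71 to 11.1 CPM in Mock and to 1.91 to 2.44 CPM in IL12/DRIL18. Cd244a carried most of that sum (242 and 276 counts in Mock, 29 and 25 in IL12/DRIL18). Ncr1, a defining NK cell gene, had 0 and 2 counts in Mock and 5 and 8 in IL12/DRIL18, and Klre1 had 17 and 16 against 19 and 23. Of the 5 NK cell markers tested, 0 were higher and 3 lower with IL12/DRIL18 against Mock (32% and 31.9% of all genes). With IL12 2 were higher and 3 lower (23% and 23.6% of all genes). Summed gamma-delta T cell markers (6 genes) fell from 126 to 130 CPM in Mock to 46.6 to 47.7 CPM in IL12/DRIL18. Trdc, the largest part, had 2482 and 2440 counts in Mock and 682 and 708 in IL12/DRIL18. Tcrg-C4 had 821 and 791 against 675 and 660, and Sox13 10 and 4 against 10 and 5. Of the 5 tested, 0 were higher and 4 lower there (32% and 31.9% of all genes). Summed markers of CD4 and regulatory T cells (5 genes) ranged over all libraries from 178 to 321 CPM. Ctla4 carried most of this last sum, with 5953 and 5755 counts in Mock and 8873 and 9537 in IL12, its highest group. Cd4 itself had 162 and 184 counts in Mock and 130 and 121 in IL12, and Foxp3 39 and 32 in Mock and 37 and 56 in IL12. The 8 B cell markers stood between 22.9 and 36.8 CPM, the 10 macrophage and dendritic cell markers (1 at 0 counts throughout) between 11 and 28.1 CPM, and the 6 neutrophil markers (2 at 0) at or below 0.393 CPM. The top of the macrophage and dendritic cell sum, in IL12, came from Xcr1 (164 and 146 counts in Mock, 632 and 656 in IL12), while Itgax had 137 and 153 counts in Mock and 25 and 43 in IL12. In bulk RNA, fewer cells of a type and less RNA per cell cannot be told apart, and the part of these lists in the results was not tested.

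Ifng (ENSMUSG00000055170), the ligand, was in the lower part of the tested genes in control cells and the highest of all in cells given both mRNAs. It had 44 and 49 counts in the NoEp libraries and 32 and 48 in Mock, or 1.38, 1.36, 0.906 and 1.43 CPM. DRIL18 brought it to 605 and 584 counts (17.5 and 17.2 CPM). With IL12 it had 6423 and 5998 counts (209.8 and 188.7 CPM), and with IL12/DRIL18 304222 and 307186 counts (8882 and 9109 CPM). NoEp and Mock overlapped, while every further step left both libraries of the higher group above both of the lower.

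Per kilobase of annotated exon, which allows genes to be ranked within a library, Ifng took rank 10903 and 11012 of 15702 genes in NoEp and rank 11745 and 10851 in Mock. It rose to rank 3839 and 3903 with DRIL18 and to rank 269 and 294 with IL12. In both IL12/DRIL18 libraries it held rank 1. There it made up 0.868% and 0.892% of all counts, against 0.0200% and 0.0182% with IL12.

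**Figure D1:**
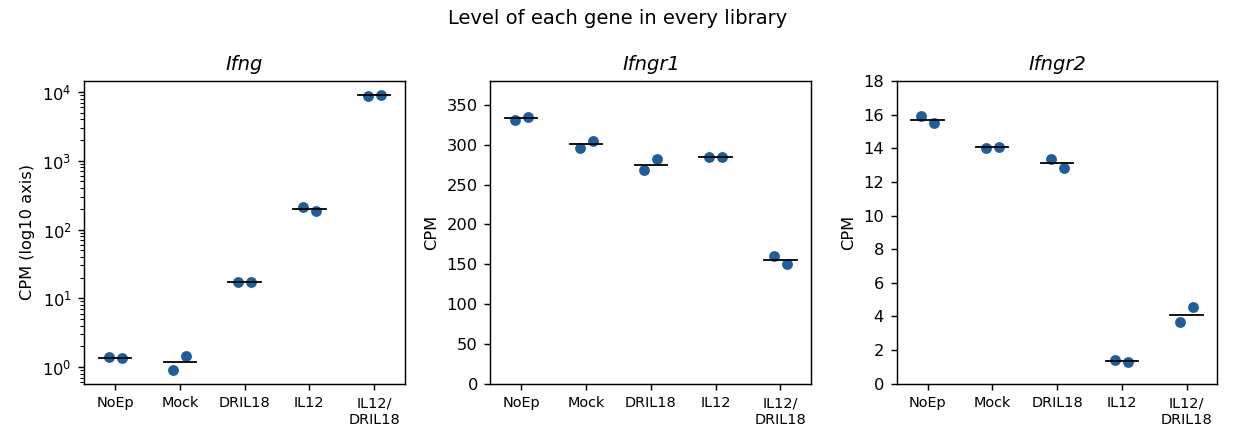
CPM of Ifng (log10 axis), Ifngr1 and Ifngr2 (linear axes from 0) in each library (points, 2 per group) with the group mean (line). Ifng climbs from about 1 CPM in NoEp and Mock to 8995 CPM in IL12/DRIL18, Ifngr1 is lowest in IL12/DRIL18 at 155.7 CPM, and Ifngr2 is lowest in IL12 at 1.38 CPM.

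Against Mock (1.17 ± 0.369 CPM, mean ± SD, n = 2), Ifng rose 14.9-fold with DRIL18, to 17.3 ± 0.172 CPM. Its log2 fold change there was 3.90 ± 0.12 (SE), with adjusted p = 1.47e-21 (edgeR). With IL12 it rose 171-fold to 199 ± 15 CPM (log2 fold change 7.42 ± 0.084, adjusted p = 2.25e-33, edgeR). Both mRNAs raised it 7730-fold, to 8995 ± 160 CPM (12.92 ± 0.08, adjusted p = 7.6e-41, edgeR), and no gene had a smaller p-value in that comparison. These comparisons share the Mock libraries. Of all tested genes, 24.3% were called in either direction with DRIL18, 46.6% with IL12 and 63.9% with IL12/DRIL18. By size of change in either direction, 0.209%, 0.057% and 0.019% of genes moved further than Ifng in the same 3 comparisons.

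Adding one mRNA to the other showed the same order. Adding DRIL18 to IL12 raised Ifng 45.1-fold (log2 fold change 5.50 ± 0.05 SE, adjusted p = 5.54e-36, edgeR), where 52.2% of genes were called (25.8% higher). IL12 added to DRIL18 raised it 519-fold (9.02 ± 0.061, adjusted p = 1.1e-39, edgeR), with 57.3% called. Between the single treatments, IL12 stood 11.5-fold above DRIL18 (3.52 ± 0.055, adjusted p = 5.64e-30, edgeR), with 39.5% called (18.9% higher and 20.6% lower).

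The level with both mRNAs exceeded what the single treatments add up to. The gains over Mock with DRIL18 and with IL12 summed to 214.3 CPM, and the gain with the mixture was 8994 CPM, a ratio of 42. Multiplying the 2 folds would give 2960 CPM. The interaction, the log2 change with both mRNAs less the sum of the changes with each, was 1.60 (95% interval 1.22 to 1.98, adjusted p = 3.57e-08, edgeR), or 3.03-fold above that product. It was called for 31.6% of all genes. The Mock level enters this estimate with 32 and 48 counts; without Mock replicate 1 the interaction was 1.90 and without Mock replicate 2 it was 1.24.

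No change in Ifng was detected with electroporation, in a comparison where the mark bis differs as well. Mock and NoEp differed by -0.24 on the log2 scale (95% interval -0.66 to 0.18, adjusted p = 0.605, edgeR), and without Mock replicate 1 the sign turned (0.06, adjusted p = 0.957). At these counts the counting error alone was 14.3% to 17.7% per library.

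**Figure D2:**
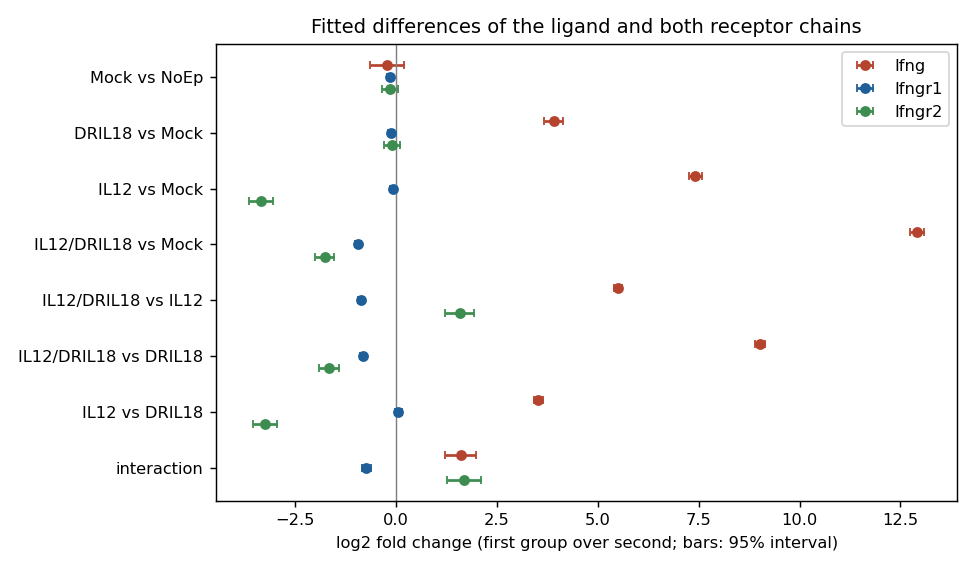
Fitted log2 fold changes (points) with 95% intervals (bars) of Ifng, Ifngr1 and Ifngr2 in the 8 comparisons, first group over second; the interaction is the change with both mRNAs less the sum of the single changes. Ifng lies at 3.90, 7.42 and 12.92 against Mock in DRIL18, IL12 and IL12/DRIL18, while Ifngr2 lies at -3.35 with IL12 and 1.57 in IL12/DRIL18 against IL12.

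The counts at the Ifng locus carry a further layer. In GENCODE M21, Gm49751, a gene model of 2722 bases on the same strand that awaits experimental evidence, overlaps Ifng. It covers 336 of the 1295 exon bases of Ifng (25.9%), and these make up 12.3% of its own length, so the rest of it lies outside the Ifng exons. The sources used here do not give how reads that fit both genes were counted, so Ifng counts may lack such reads. Gm49751 was the gene whose pattern lay nearest to Ifng, by the root mean square difference of centred log2 CPM over the 10 libraries (1.33, r = 0.968). Both genes lie at the same locus, and whether their counts share reads is not known.

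Gm49751 did not keep a fixed proportion to Ifng. It had 1258 and 1307 counts with IL12, equal to 19.6% and 21.8% of the Ifng counts. In IL12/DRIL18 it had 9051 and 8704 counts, or 2.98% and 2.83% of Ifng. With DRIL18 it had 15 and 27 counts, 2.48% and 4.62% of Ifng. Relative to Ifng, Gm49751 was thus several times more abundant with IL12 than in the other cytokine groups, from which IL12 was separate. From IL12 to IL12/DRIL18, Gm49751 rose by 2.67 ± 0.052 on the log2 scale (adjusted p = 2.02e-27, edgeR), against 5.50 for Ifng. In the controls the ratio was 15.9% and 12.2% in NoEp and 28.1% and 12.5% in Mock, above DRIL18 and IL12/DRIL18. A high ratio was thus not particular to IL12. With 6 to 9 counts of Gm49751, these control ratios are too imprecise to rank against IL12.

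Other genes beside Ifng on the chromosome followed other orders. Of 10 neighbours listed (9 found in the table), 8 were tested. In IL12/DRIL18 against Mock 7 of the 8 were higher and 1 lower (32% of all genes were higher and 31.9% lower), with a median log2 fold change of 0.35 against -0.002 over all genes. The 7 include Il22, which passed the filter on low counts only through IL12/DRIL18, so its direction was fixed in advance. With IL12 5 were higher and 0 lower (23% and 23.6% of all genes). With DRIL18 0 were higher and 1 lower (12.2% and 12.1%).

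Ifngas1, a long noncoding RNA gene on the opposite strand known to favour Ifng transcription, was highest with IL12 alone. It had 5.38 and 5.74 CPM in Mock, 6.49 and 5.42 CPM with DRIL18, 53.1 and 52.7 CPM with IL12, and 11.7 and 11.4 CPM with IL12/DRIL18. It rose 9.52-fold with IL12 (log2 fold change 3.25 ± 0.091, adjusted p = 2e-23, edgeR), and adding DRIL18 to IL12 lowered it 4.57-fold (-2.19 ± 0.082, adjusted p = 2.57e-20), in the comparison in which Ifng rose 45.1-fold. Dyrk2, a kinase gene, was likewise highest with IL12 (215 CPM), against 81.2 CPM in Mock and 70.6 CPM in IL12/DRIL18.

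Il22, the gene for a barrier cytokine, was read only in IL12/DRIL18. It had 1070 and 1187 counts there (31.2 and 35.2 CPM) and 0 in each of the other 8 libraries. With 3 counts over a group set in place of 0, it was at least 763-fold higher than in Mock and at least 691-fold higher than in IL12. Iltifb, a near-identical copy, had 3 and 8 counts in IL12/DRIL18, and reads of the pair may be hard to assign. Mdm1, which lies beyond Il22 and encodes a protein of centrioles, was at 20.2 CPM in Mock and 37.3 CPM in IL12/DRIL18 (log2 fold change 0.88, adjusted p = 1.2e-12, edgeR).

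**Figure D3:**
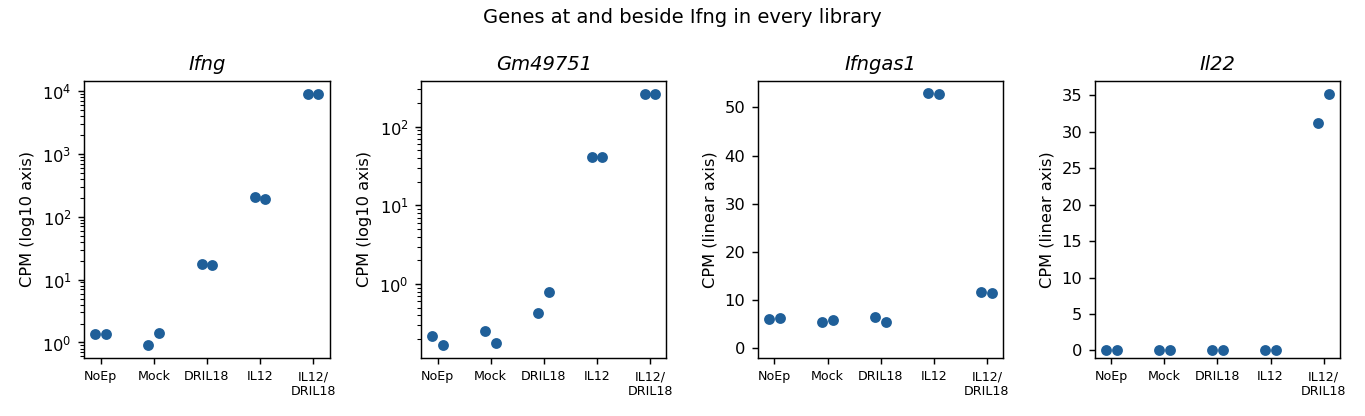
CPM per library (points, 2 per group) of Ifng and Gm49751 (log10 axes) and of Ifngas1 and Il22 (linear axes). Ifngas1 peaks with IL12 alone, at 53.1 and 52.7 CPM, whereas Ifng and Gm49751 are highest with both mRNAs, and Il22 has counts only there.

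After Gm49751, the genes nearest in pattern to Ifng with at least 5 CPM in their highest group were Sema3b (1.37, r = 0.964), a secreted semaphorin gene, Gm44851 (1.81, r = 0.936) and Pdzk1ip1 (2.27, r = 0.887), each over the 10 libraries. Sema3b had 0.0283 CPM in Mock, 1.6 CPM with IL12 and 170 CPM with IL12/DRIL18. Each distance exceeded 1 log2 unit, among genes with a symbol and at least 5 CPM in their highest group. Ifng spanned a very wide range, so its distances cannot be set against those of genes that changed less. Each of these genes had its highest group mean with IL12/DRIL18, which reflects that they were picked for the Ifng profile. The remaining interferon genes give a contrast. Of 20 genes for type I and type III interferons, 16 had 0 counts in all 10 libraries, and the other 4 had at most 9 counts in any library.

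Ifngr1 (ENSMUSG00000020009), the ligand-binding chain, was well expressed in every group and changed mainly with both mRNAs. It had 331.6 and 335.4 CPM in NoEp, 296.3 and 305 in Mock, 268.1 and 281.7 with DRIL18, 284.7 and 284.1 with IL12, and 160.8 and 150.6 with IL12/DRIL18. Both IL12/DRIL18 libraries lay far below the 8 others, whose values spanned 268.1 to 335.4 CPM. In order of level the groups run NoEp, Mock, IL12, DRIL18 and IL12/DRIL18, and IL12 and DRIL18 did not differ beyond their error (0.05, 95% interval -0.03 to 0.13, adjusted p = 0.331, edgeR).

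With IL12/DRIL18, Ifngr1 fell 1.93-fold against Mock, from 300.7 ± 6.14 to 155.7 ± 7.24 CPM (n = 2; log2 fold change -0.95 ± 0.039, adjusted p = 1.31e-19, edgeR). Summed CD8 T cell markers were lower in the same libraries, as given above, and their part in this was not tested. IL12/DRIL18 was also below IL12 (-0.87 ± 0.039, adjusted p = 2.86e-18) and below DRIL18 (-0.82 ± 0.039, adjusted p = 9.25e-18) in the same fit. The interaction was -0.74 (95% interval -0.85 to -0.63, adjusted p = 1.8e-12, edgeR), so the level with both mRNAs lay 1.67-fold below the product of the single changes.

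The other differences of Ifngr1 were small. With IL12 alone it was -0.08 ± 0.038 against Mock, with both IL12 libraries below both Mock libraries, and did not pass after adjustment (95% interval -0.16 to 0, adjusted p = 0.0845, edgeR). DRIL18 lowered it by 0.13 ± 0.038 on the log2 scale (adjusted p = 0.0112), a call that is lost without Mock replicate 2 (-0.11, adjusted p = 0.155) or DRIL18 replicate 1 (-0.10, adjusted p = 0.189). In Mock it was lower than in NoEp (-0.15 ± 0.038, adjusted p = 0.0126), where 6.98% of all genes were called (3.34% higher and 3.64% lower). That call is lost when either NoEp library is left out (-0.15 with adjusted p = 0.0554 for the first, -0.14 with adjusted p = 0.115 for the second). It is also lost when either Mock library is (-0.13 with adjusted p = 0.226, and -0.17 with adjusted p = 0.0706).

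Genes with nearly the same profile as Ifngr1 were Bach2 (root mean square difference 0.0438, r = 0.995 over the 10 libraries), a transcriptional repressor of quiescent and memory T cells, Rassf5 (0.0477, r = 0.994), which encodes an integrin activator, Arhgap15 (0.0481, r = 0.995) and Itm2b (0.05, r = 0.992). Bach2 had 63.3 CPM in Mock, 58.7 CPM in DRIL18, 56.5 CPM in IL12 and 31.9 CPM in IL12/DRIL18. All 4 had their lowest group mean with IL12/DRIL18, which reflects that they were picked for the Ifngr1 profile. Bach2 with DRIL18 alone did not pass (-0.11, adjusted p = 0.141, edgeR). On chromosome 10 beside Ifngr1, Tnfaip3, the gene of the NF-κB inhibitor A20, rose with DRIL18 (0.59, adjusted p = 6.45e-09, edgeR) and with IL12/DRIL18 (1.12, adjusted p = 6.1e-17), and Pex7, a peroxisomal import gene, did not pass there (0.14, adjusted p = 0.112). Of the 7 neighbours listed 4 were tested, and with IL12/DRIL18 2 were higher and 1 lower, near the shares of all genes (32% and 31.9%) for a list this short.

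Ifngr2 (ENSMUSG00000022965), the accessory chain, was the less abundant chain and was lowest with IL12 alone. It had 507 and 557 counts in NoEp (15.9 and 15.5 CPM), 495 and 474 in Mock (14.0 and 14.1 CPM) and 463 and 436 with DRIL18 (13.4 and 12.9 CPM). Only 44 and 42 counts were left with IL12 (1.44 and 1.32 CPM), and 126 and 153 counts stood with IL12/DRIL18 (3.68 and 4.54 CPM). The groups formed a high tier of NoEp, Mock and DRIL18, a low IL12 group, and IL12/DRIL18 between them, without overlap between the tiers.

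Against Mock (14.05 ± 0.0643 CPM), Ifngr2 fell 10.2-fold with IL12, to 1.38 ± 0.0822 CPM (n = 2; log2 fold change -3.35 ± 0.15, adjusted p = 1.87e-18, edgeR). Only 38 of the 15777 genes fell further. With IL12/DRIL18 it fell 3.42-fold, to 4.11 ± 0.607 CPM (-1.77 ± 0.12, adjusted p = 1.83e-14). Adding DRIL18 to IL12 therefore raised Ifngr2 2.97-fold (1.57 ± 0.18, adjusted p = 4.79e-09), in the comparison in which Ifngr1 fell 1.83-fold. Adding IL12 to DRIL18 lowered it 3.19-fold (-1.67 ± 0.12, adjusted p = 1.39e-13). All these values come from the edgeR fit.

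The interaction for Ifngr2 was 1.67 (95% interval 1.26 to 2.09, adjusted p = 7.7e-08, edgeR), with the opposite sign to that of Ifngr1. The level with both mRNAs, 4.11 CPM, was 3.19-fold above the 1.29 CPM that the product of the single changes would give. DRIL18 alone did not pass against Mock (-0.10, 95% interval -0.30 to 0.10, adjusted p = 0.527), nor did Mock against NoEp (-0.16, 95% interval -0.36 to 0.04, adjusted p = 0.398).

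The balance of the chains shifted accordingly. Per kilobase of exon (2847 bases for Ifngr1 and 3767 for Ifngr2), Ifngr1 exceeded Ifngr2 by 27.6 and 28.6 times in NoEp, 28 and 28.6 times in Mock and 26.6 and 29 times with DRIL18. The ratio was 262 and 285 with IL12 and 57.9 and 43.9 with IL12/DRIL18. NoEp, Mock and DRIL18 overlapped in this ratio, and both IL12-containing groups stood above them, IL12 farthest. The ligand moved past its receptor: per kilobase, Ifng was 0.00672 and 0.0103 times Ifngr1 in Mock, 1.62 and 1.46 times with IL12, and 121 and 133 times with IL12/DRIL18. Exon lengths come from GENCODE M21 on GRCm38 and may differ from those used for counting.

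The nearest profiles to Ifngr2 were those of Wnt10b (root mean square difference 0.289, r = 0.98 over the 10 libraries), a Wnt ligand gene, Rxra (0.349, r = 0.966), the retinoid X receptor, Myo1h (0.484, r = 0.937) and Tspan32 (0.494, r = 0.948). Wnt10b had 25.4 CPM in Mock, 3.15 with IL12 and 5.93 with IL12/DRIL18. Rxra had 13.2, 1.38 and 6.28 CPM in the same groups. Each of the 4 was lowest with IL12 and higher with IL12/DRIL18, as Ifngr2 was, which reflects that they were picked for this profile.

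Ifngr2 lies in a cluster of class II cytokine receptor genes on chromosome 16, with Ifnar1 and Ifnar2, the chains of the type I interferon receptor, and Il10rb, a chain shared by the receptors of IL-10, IL-22 and type III interferon. With IL12 all 3 fell as well, but less: Ifnar2 from 105 to 47.4 CPM (-1.14), Ifnar1 from 216 to 135 CPM (-0.68) and Il10rb from 61.4 to 42.1 CPM (-0.54). With IL12/DRIL18 they fell further, to 27.1 CPM (-1.95), 90.9 CPM (-1.25) and 20.2 CPM (-1.60). Il10ra, the ligand-binding chain of the IL-10 receptor on another chromosome, rose with IL12 (0.45, adjusted p = 1.64e-08) and fell with IL12/DRIL18 (-1.79, adjusted p = 1.41e-21), all in the edgeR fit.

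Of the 10 other class II receptor genes listed, 5 passed the filter on low counts. When DRIL18 was added to IL12 all 5 fell (26.3% of all genes did), with a median log2 fold change of -0.80 against -0.008 over all genes, while Ifngr2 rose. The interaction was below 0 and called for all 5 (17.1% of all genes), with -0.46 for Ifnar2, -0.37 for Ifnar1 and -0.66 for Il10rb. Of the 10 chromosome neighbours of Ifngr2, which include the 3 receptors, 7 fell and 2 rose with IL12 (23.6% and 23% of all genes), and 9 fell and 1 rose with IL12/DRIL18 (31.9% and 32%). Tmem50b, the next coding gene after Ifngr2, had 37.9 CPM in Mock, 20.9 with IL12 (-0.86) and 22.6 with IL12/DRIL18 (-0.74). Gart, a purine synthesis gene, rose in both (0.26 and 0.57), and Son, a splicing factor gene, was at 0.01 (adjusted p = 0.865) and -0.10 (adjusted p = 0.0158, lost without Mock replicate 2, at -0.08 with adjusted p = 0.161, and without IL12/DRIL18 replicate 2, at -0.09 with adjusted p = 0.0834).

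**Figure D4:**
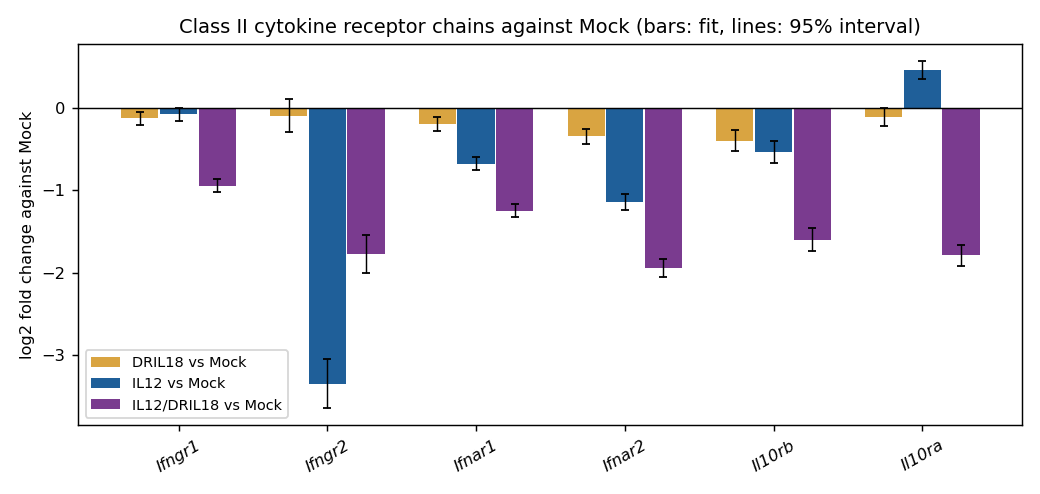
Log2 fold change against Mock (bars) with 95% intervals (lines) of 6 class II cytokine receptor genes in DRIL18, IL12 and IL12/DRIL18. Ifngr2 is the one gene of the 6 whose fall is larger with IL12 (-3.35) than with IL12/DRIL18 (-1.77).

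Downstream of the receptor, the kinase genes did not follow the ligand. Jak1, the kinase of the Ifngr1 chain, fell in all 3 cytokine groups, by 0.28 with DRIL18, by 0.14 with IL12 and by 0.95 with IL12/DRIL18 (adjusted p = 6.87e-21, edgeR), from 722 CPM in Mock to 374 CPM. Jak2, the kinase of the Ifngr2 chain, rose with DRIL18 (0.21, adjusted p = 0.000307) and had 0.06 with IL12/DRIL18 (adjusted p = 0.231) and -0.08 with IL12 (adjusted p = 0.151).

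Genes that limit the signal differed in direction. Socs1, which blocks the JAK kinases, had 67 CPM in Mock and rose to 83.7 CPM in DRIL18, 106 CPM in IL12 and 90.5 CPM in IL12/DRIL18, called in each (0.32, 0.66 and 0.43). Ptpn2, a phosphatase that acts on JAK1, rose with IL12 (0.73, adjusted p = 1.23e-14, edgeR) and IL12/DRIL18 (0.50, adjusted p = 3.34e-11) and had 0.06 with DRIL18 (adjusted p = 0.423). Others on the list, named after their values were seen, fell in some groups. Cish, a cytokine-induced SOCS family gene, fell with DRIL18 (-0.39, adjusted p = 4.48e-08) and IL12 (-0.77, adjusted p = 4.57e-15) and rose slightly with IL12/DRIL18 (0.14, adjusted p = 0.00764). Socs3 fell with DRIL18 (-0.44, adjusted p = 1.83e-07) and rose with IL12 (1.10) and IL12/DRIL18 (0.82). Pias1 fell in all 3, most with IL12/DRIL18 (-0.57, adjusted p = 1.83e-11). Of all 14 signalling genes listed, 7 were higher and 4 lower with DRIL18 (12.2% and 12.1% of all genes), 5 and 6 with IL12 (23% and 23.6%), and 7 and 5 with IL12/DRIL18 (32% and 31.9%). Their medians of 0.09, -0.07 and 0.11 stood against 0.004, -0.007 and -0.002 over all genes.

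IFN-γ target genes, 42 of which were listed and 41 tested, were mostly higher with DRIL18. There 36 were higher and 0 lower (12.2% and 12.1% of all genes), with a median log2 fold change of 0.68. With IL12 18 were higher and 8 lower (23% and 23.6% of all genes), with a median of 0.14. With IL12/DRIL18, where Ifng was 519-fold above DRIL18, 19 were higher and 20 lower (32% and 31.9%), with a median of -0.05. Against DRIL18 the mixture had 10 higher and 27 lower (28.3% and 29%). The interaction was below 0 and called for 31 of the 41 and above 0 for 0 (17.1% and 14.6% of all genes).

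Single targets differed. Cxcl10, a T cell attracting chemokine, followed the Ifng order in part, with 0.509 CPM in Mock, 6.39 CPM in DRIL18, 3.61 CPM in IL12 and 34.4 CPM in IL12/DRIL18 (6.07, adjusted p = 1.72e-22, edgeR). Gbp2, a guanylate-binding protein, peaked with IL12 at 2100 CPM, against 219 in Mock, 732 with DRIL18 and 884 with IL12/DRIL18. Irf1, an interferon-induced transcription factor, rose with DRIL18 (0.62, adjusted p = 1.27e-13) and fell slightly with IL12/DRIL18 (-0.20, adjusted p = 8.25e-05). Tap1, a peptide transporter of antigen presentation, did likewise (0.33 and -0.27). Nlrc5, the activator of MHC class I genes, had 0.06 with DRIL18 (adjusted p = 0.223) and fell with IL12/DRIL18 (-0.64, adjusted p = 5.61e-16).

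Cd274, the gene of the ligand PD-L1, rose with DRIL18 (0.90) and IL12/DRIL18 (1.30, adjusted p = 6.43e-17, edgeR). With IL12 it was at 0.26 (adjusted p = 0.00389), a call lost without Mock replicate 1 (0.18, adjusted p = 0.112). Ciita, the activator of MHC class II genes, rose with DRIL18 (1.85, adjusted p = 6.73e-07) and IL12/DRIL18 (1.40, adjusted p = 1.32e-05) and had -0.08 with IL12 (adjusted p = 0.852). Cxcl9 stayed at or below 0.339 CPM in every group mean. Its call with IL12/DRIL18 (2.47, adjusted p = 0.0182) is lost without Mock replicate 2 (1.55, adjusted p = 0.205) or IL12/DRIL18 replicate 2 (2.26, adjusted p = 0.102) and with DESeq2 (2.57, adjusted p = 0.0511).

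**Figure D5:**
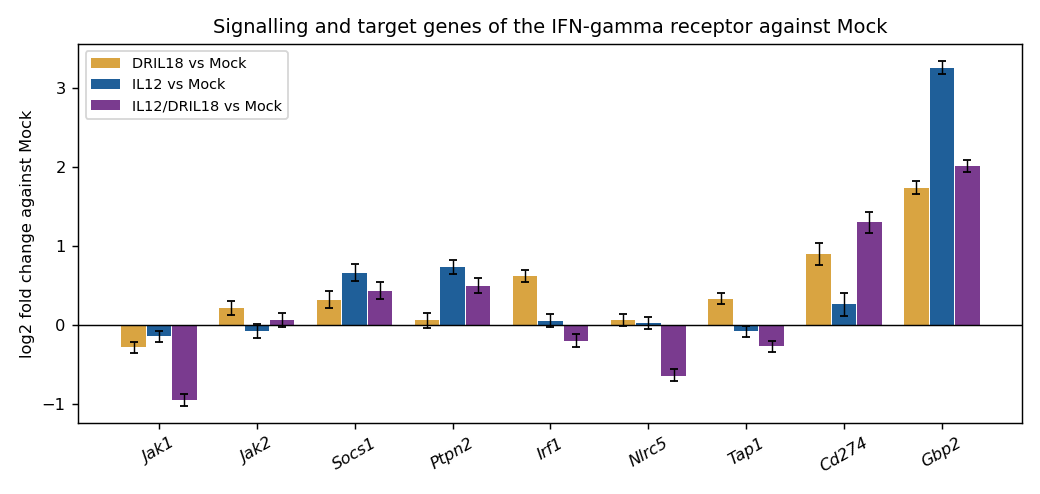
Log2 fold change against Mock (bars) with 95% intervals (lines) of 9 signalling and target genes of the IFN-γ receptor. Irf1 and Tap1 are above 0 with DRIL18 and below 0 with IL12/DRIL18, and Jak1 is below 0 in all 3 groups.

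Upstream of Ifng, receptor genes for both cytokines moved with IL12. Il12rb2, the signalling chain of the IL-12 receptor, had 89.1 CPM in Mock, 119 CPM in DRIL18, 270 CPM in IL12 and 254 CPM in IL12/DRIL18. Il18r1, the ligand-binding chain of the IL-18 receptor, was at 72.8, 39.9, 827 and 551 CPM in the same groups. Both receptor genes were thus above Mock in IL12/DRIL18, by 1.51 and 2.92 on the log2 scale. Of the 17 listed genes of these receptors and their signalling, 9 were higher and 5 lower with IL12/DRIL18 (32% and 31.9% of all genes), 11 and 4 with IL12 (23% and 23.6%), and 7 and 6 with DRIL18 (12.2% and 12.1%). Their medians were 0.25, 0.27 and -0.11, against -0.002, -0.007 and 0.004 over all genes.

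Among 30 transcription factor genes listed for their known action at Ifng, 16 were higher and 13 lower with IL12/DRIL18 (32% and 31.9% of all genes), 14 and 9 with IL12 (23% and 23.6%), and 6 and 13 with DRIL18 (12.2% and 12.1%). Their medians were 0.10, 0.10 and -0.10, against -0.002, -0.007 and 0.004 over all genes. Tbx21, which encodes T-bet, rose from 79.7 CPM in Mock to 180 with IL12 (1.17, adjusted p = 4.65e-21, edgeR) and 227 with IL12/DRIL18 (1.51, adjusted p = 1.93e-24). Its change with DRIL18 (0.12, adjusted p = 0.0276) is lost when either Mock library is left out (0.12 with adjusted p = 0.156, and 0.13 with adjusted p = 0.104) or either DRIL18 library is (0.09 with adjusted p = 0.249, and 0.15 with adjusted p = 0.0503). Eomes, its relative, went the other way, from 13.5 CPM in Mock to 5.04 with DRIL18 and 1.25 with IL12/DRIL18 (-3.43, adjusted p = 2.65e-17), with 13.2 CPM in IL12.

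Bhlhe40, a factor of cytokine-producing T cells, rose in the Ifng order, with 85.4 CPM in Mock, 160 CPM in DRIL18, 396 CPM in IL12 and 718 CPM in IL12/DRIL18. Batf, an AP-1 family factor, was at 27.5, 36.8, 33.7 and 90.9 CPM in these groups. Hlx, a homeobox partner of T-bet, was highest with IL12 (5.62 CPM, against 0.131 in Mock and 1.19 with IL12/DRIL18). Stat4, the main STAT of the IL-12 receptor, fell in all 3 (-0.24, -0.28 and -0.47, the last with adjusted p = 1.3e-10, edgeR). Runx3, which acts with T-bet at Ifng, stayed between 175 and 202 CPM in all group means. Its call with IL12/DRIL18 (0.11, adjusted p = 0.0191) is lost without Mock replicate 1 (0.06, adjusted p = 0.308) or IL12/DRIL18 replicate 2 (0.05, adjusted p = 0.357).

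RNA-binding proteins that limit cytokine mRNA split. Zfp36l2, which is known to hold back translation of stored Ifng mRNA, fell from 352 CPM in Mock to 269 with DRIL18, 248 with IL12 and 130 with IL12/DRIL18 (-1.43, adjusted p = 8.19e-24, edgeR). Zfp36, which encodes tristetraprolin, a destabiliser of AU-rich mRNA, fell from 49.6 CPM to 31.5 with DRIL18 and 16.8 with IL12/DRIL18 (-1.56, adjusted p = 2.15e-19), and was at 48.1 CPM with IL12. Zc3h12a, the RNase Regnase-1, rose instead, from 22.9 CPM to 59.4 with DRIL18 and 120 with IL12/DRIL18 (2.39, adjusted p = 1.97e-25). With IL12 Zc3h12a had 0.19 (adjusted p = 0.0183), lost without Mock replicate 2 (0.12, adjusted p = 0.252) or IL12 replicate 2 (0.16, adjusted p = 0.125). Rc3h1, the gene of Roquin-1, fell slightly with DRIL18 (-0.26) and IL12/DRIL18 (-0.22, adjusted p = 0.000191). Of the 11 genes listed, 5 were higher and 4 lower with IL12/DRIL18 (32% and 31.9% of all genes), with a median of 0.03 against -0.002 over all genes.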

How the data were processed

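RNA from 10 libraries in 5 groups was sequenced from stranded mRNA libraries, per the labels' protocols. Per the submitters' processing notes, STAR 2.7.9, featureCounts, edgeR and limma were used with the mm39 build. The sources used here do not name the annotation release, the strand setting or how reads shared by genes were handled. The deposited counts are whole reads per gene for 55359 identifiers, unscaled. The authors' deposited log2 CPM table of 13225 genes equals log2 CPM computed from the counts with TMM factors, to within 5e-14, and was used only for this check. Columns were matched to samples by group name and replicate number, with NE read as not electroporated. Symbols came from a GENCODE M21 table by identifier without version (52083 matched, 3276 did not).

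All 10 libraries were fitted with 5 group means in edgeR 4.0.16 (R 4.3.3, filterByExpr, TMM factors 0.9547 to 1.027, quasi-likelihood F test, Benjamini-Hochberg over 15777 genes). Standard errors come from the F statistic and 95% intervals from its degrees of freedom. The procedure was tested on simulated data. The alternatives were DESeq2 1.42.0, its size factors in edgeR, limma-voom (limma 3.58.1), no filter, only the groups compared, the replicate number as a block, the mark bis in the column names (of unstated meaning) as a covariate, and leaving out each library. Members, lists, named genes and tests were chosen with earlier results of these data known. The rule named the 3 genes, a fixed set of pathway genes whether or not they moved (1 of them is not reported here), and the 4 genes nearest to each member with at least 5 CPM in their highest group (log2 CPM with a prior count of 2). Ifngas1, Iltifb, Cish, Socs3, Pias1 and the single cell type markers fall outside the rule and were named after their values were seen. Where a library is left out, the lone library of its group is assumed to vary like the others. The covariate for the mark bis is estimated from DRIL18 and IL12 alone, since each other group carries a single state of it. With that covariate, Ifng in IL12/DRIL18 against Mock stood at 13.03 rather than 12.92 on the log2 scale.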

Additional observations from a re-analysis of the deposited data

Results flagged for a closer look

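The effect of one mRNA depended on the presence of the other for all 3 genes, by the interaction term of the edgeR fit. For Ifng it was 1.60 on the log2 scale, above 0. For Ifngr1 it was -0.74, below 0. For Ifngr2 it was 1.67, above 0, with a smaller fall in IL12/DRIL18 than in IL12. The interaction was called for 31.6% of all genes.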

How the results depend on the processing

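With each replicate number as a block, no call of Ifng, Ifngr1 or Ifngr2 changed. The numbers do not pair the libraries, since replicate differences correlated between groups by -0.03 to 0.05. For the 3 genes, 400 alternative values kept direction and side of the threshold, 7 lost the call and 1 turned sign. Ifng in Mock against NoEp turned from -0.24 to 0.06 without Mock replicate 1. Ifngr1 in Mock against NoEp lost its call with the mark bis as covariate (-0.12, adjusted p = 0.368, edgeR) and without each NoEp or Mock library (-0.17 to -0.13 over all libraries left out). Ifngr1 with DRIL18 against Mock lay between -0.17 and -0.10 with single libraries left out. Ifng in Mock against NoEp lay between -0.59 and 0.06. The count of genes called in Mock against NoEp fell from 1102 to 172 with the mark bis as covariate, and lay between 242 and 1399 with single libraries left out, with 350 without NoEp replicate 2, 242 without Mock replicate 1 and 349 without Mock replicate 2. For DRIL18 against Mock the count of 3832 lay between 2525 and 4125.

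Signs of small, uncalled values turned in these cases. With IL12 against Mock and the mark bis as covariate, Ciita had 0, Nlrc5 0 and Eomes 0.03. Without IL12 replicate 2, Eomes had 0.17, Nlrc5 -0.02, Son -0.03 and Zfp36 0.02. Without Mock replicate 1, Son had -0.01 and Tnfaip3 0.02, and without Mock replicate 2 Ciita had 0.06. With DRIL18 against Mock, Hlx had -0.18 without Mock replicate 1 and -0.18 without DRIL18 replicate 2, and Ifngas1 -0.04 without DRIL18 replicate 1.

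Over all single libraries left out, these lay between -0.20 and 0.06 for Ciita (IL12), -0.25 and 0.17 for Eomes (IL12), -0.18 and 0.21 for Hlx (DRIL18), -0.04 and 0.22 for Ifngas1 (DRIL18), -0.02 and 0.07 for Nlrc5 (IL12), -0.03 and 0.05 for Son (IL12), -0.08 and 0.02 for Tnfaip3 (IL12) and -0.10 and 0.02 for Zfp36 (IL12). With the mark bis as covariate, the calls in IL12/DRIL18 against Mock of Cxcl9 (2.68, adjusted p = 0.0694), Runx3 (0.08, adjusted p = 0.247) and Son (-0.10, adjusted p = 0.103) and of Zc3h12a with IL12 (0.17, adjusted p = 0.0722) were also lost. So was that of Il22 in IL12/DRIL18 against Mock (13.12), where the groups that estimate the covariate, DRIL18 and IL12, have 0 counts.

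Depth limits Ifng in the controls (32 to 49 counts) and Ifngr2 with IL12 (42 and 44 counts), so folds against these levels carry that counting error.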
